A study of Arabidopsis thaliana with 10 samples.

Results

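XTH18 (AT4G30280) and XTH19 (AT4G30290) are neighbouring Arabidopsis thaliana genes for xyloglucan endotransglucosylase/hydrolases, enzymes of the cell wall. They were followed by every probe set annotated to exactly 1 gene with either symbol. That rule found 2 probe sets, 1 for each gene, among the 22745 non-control probe sets with values and the 13512 of these that name a single gene. The array series compared 5 groups of 2 arrays from ecotype Columbia, with no other genotype given in the labels. Pistils had been emasculated 24 hours before pollination and were taken unpollinated or, in hours after pollination (HAP), at 0.5 HAP, 3.5 HAP and 8 HAP, as pools of 20 pistils from at least 10 plants. The remaining group held unfertilised ovules dissected out of unpollinated pistils, about 1500 ovules from 50 pistils of about 30 plants per array. Pollinated pistils were extracted with the pollen and pollen tubes on and in them. The series holds a single unpollinated pistil group, with none matched to each time after pollination. Differences from it therefore cannot be told apart as due to pollination, to time since emasculation or to handling.

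Xyloglucan is the main hemicellulose of the primary wall in plants such as Arabidopsis and coats and links cellulose microfibrils. An endotransglucosylase/hydrolase (XTH) cuts a xyloglucan chain and joins the new end either to another xyloglucan chain, which remodels the network while keeping it joined, or to water, which shortens the chain. The family is large, and its members differ in the organ and hormone response with which their transcripts are known. XTH18 is known from elongating root cells, and XTH19 from auxin-treated tissue and from the rejoining of cut stems. In the pistil, pollen tubes cross the wall of the stigma and then grow through the walls and matrix of the style and transmitting tract towards the ovules.

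Array medians lay between 251.5 and 272.2 intensity units, and with 2 arrays a group the number of arrays limits the precision. Values up to 136.5, the 95th percentile of 27 bacterial control probe sets, are called background level here. Unpollinated replicate 2 stood apart in RNA quality, where the actin control read from its 3' end exceeded that from its 5' end by 2.96 on the log2 scale, against 1.93 to 2.55 on the other 9 arrays. For XTH18 the 2 unpollinated arrays read 402 and 396, so that array did not stand apart there, and results without it are given where they matter. The labelled tissues could be checked on a few markers. All 5 measured ovule and embryo sac genes were higher in ovules than in unpollinated pistils by limma, among them BAN, a proanthocyanidin gene of the inner integument, at 2682 ± 245 against 320 ± 63.4 (SD, n = 2). The summed intensity of 11 measured pollen genes was 1936 to 2098 on the unpollinated arrays, 8342 to 8605 at 0.5 HAP, 12872 to 13688 at 3.5 HAP and 14679 to 14823 at 8 HAP.

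XTH18 read 402 and 396 on the unpollinated pair of arrays. The 0.5 HAP pair read 589 and 640, the 3.5 HAP pair 220 and 202, the 8 HAP pair 175 and 183, and the ovule pair 38.0 and 54.5. The order of the group means from high to low was 0.5 HAP, unpollinated, 3.5 HAP, 8 HAP and ovules. As a share of the unpollinated mean the level was 154% at 0.5 HAP, 52.9% at 3.5 HAP and 44.9% at 8 HAP. Both ovule arrays lay within the background level, and both 8 HAP arrays lay above it.

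XTH19 read 752 and 710 on the unpollinated pair. The 0.5 HAP pair read 491 and 485, the 3.5 HAP pair 368 and 344, the 8 HAP pair 411 and 424, and the ovule pair 50.6 and 57.9. The order of the group means was different here: unpollinated, 0.5 HAP, 8 HAP, 3.5 HAP and ovules. The share of the unpollinated mean was 66.8% at 0.5 HAP, 48.7% at 3.5 HAP and 57.1% at 8 HAP. Because the genes are read by different probe sets, the levels of XTH18 and XTH19 cannot be set against each other. The probe sequences were not used here, so how far each probe set also reads the RNA of the neighbouring, related gene was not tested.

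**Figure D1:**
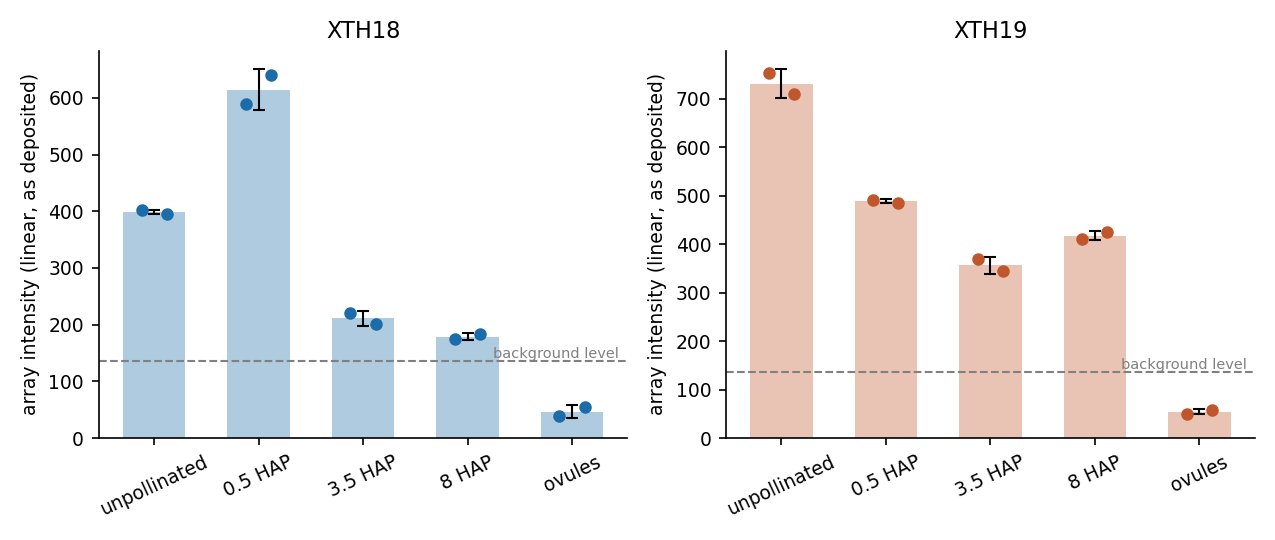
Linear array intensity of XTH18 (left) and XTH19 (right) in the 5 groups. Points are arrays, bars are means, error bars are the SD of 2 arrays, and the dashed line is the background level of 136.5; XTH18 peaks at 0.5 HAP (589 and 640) while XTH19 is highest in unpollinated pistils (752 and 710), and both are within the background level in ovules.

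At 0.5 HAP the genes moved in opposite directions. XTH18 rose 1.52-fold against unpollinated pistils, from 399 ± 4.27 to 614 ± 36.2 (SD, n = 2; log2 0.60, SE 0.117, limma adjusted p = 0.00276). XTH19 fell 1.48-fold, from 731 ± 29.9 to 488 ± 3.96 (SD, n = 2; log2 -0.57, SE 0.0869, limma adjusted p = 0.000638). Folds between groups come from log2(value + 16), which understates changes of low values; the bounds for ovules, given as at least so many fold, are linear ratios. Of the 22745 probe sets 30.2% were called here at an adjusted p under 0.05, 15.5% higher and 14.7% lower, so that 51.4% of the calls were higher (76.2% when centred on reference genes). The rise of XTH18 was as large or larger for 5.27% of all probe sets, and the fall of XTH19 for 4.30%. Without unpollinated replicate 2 the log2 differences were 0.59 and -0.61. In these whole pistils a change in the number of cells that hold a transcript and a change in RNA per cell cannot be told apart.

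Among 5 measured genes of stigma, style and transmitting tract 3 rose at 0.5 HAP, including ARPN, a plantacyanin, from 1247 to 4977, and the bHLH factor SPT, which acts in carpel margin tissue, fell from 550 to 303. Their summed intensity was 3984 to 4411 unpollinated, 7930 to 7964 at 0.5 HAP, 7165 to 8231 at 3.5 HAP and 3523 to 3765 at 8 HAP. ARPN made up most of that sum at 0.5 and 3.5 HAP, and the median log2 difference of the 5 genes from unpollinated pistils was 0.33 at 0.5 HAP, -0.13 at 3.5 HAP and -0.76 at 8 HAP. AT3G12000, another gene of this list, rose like XTH18 at 0.5 HAP, from a mean of 150 unpollinated to 446 (limma adjusted p = 0.000507). Its other means were within the background level, with 130 at 3.5 HAP, 18.8 at 8 HAP and 22.6 in ovules. In the step from 0.5 to 3.5 HAP, where XTH18 fell, 1 of the 5 genes was called lower, 0 higher and 4 neither way. Of all probe sets 9% were called lower and 5.19% higher in that step, so most of any list would be called neither way. The median log2 difference of the 5 genes in that step was 0.05, beside -0.03 over all probe sets. Of the 11 pollen genes 9 rose at 0.5 HAP and 0 fell. At that time 15.5% of all probe sets were called higher and 14.7% lower. No marker of either list was at 0, 7 of the 11 pollen genes and 0 of the 5 stigma and style genes were within the background level on both unpollinated arrays, and the part of pollen or stigma RNA in the changes of XTH18 and XTH19 was not tested.

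By 3.5 HAP both genes were below their unpollinated level. XTH18 stood at 211 ± 13.2 (SD, n = 2), 1.83-fold lower (log2 -0.87, SE 0.117, limma adjusted p = 0.000234). XTH19 stood at 356 ± 17.4 (SD, n = 2), 2.01-fold lower (log2 -1.01, SE 0.0869, limma adjusted p = 8.51e-06). Here 29.9% of all probe sets were called, 12.9% higher and 17% lower, so that 43.1% of the calls were higher (62.5% when centred on reference genes). Differences at least as low were found for 1.68% of all probe sets in the case of XTH18 and 1.05% in the case of XTH19. At 8 HAP XTH18 was 2.13-fold lower than in unpollinated pistils (log2 -1.09, SE 0.117, limma adjusted p = 3.1e-05) and XTH19 1.72-fold lower (log2 -0.78, SE 0.0869, limma adjusted p = 3.96e-05), with 38.5% of all probe sets called, 19.7% higher and 18.8% lower. Of these calls 51.2% were higher (77% when centred on reference genes). These 3 comparisons share the unpollinated arrays. Over the 4 pistil groups together, limma's F test gave an adjusted p = 2.25e-06 for XTH18 and 2.38e-05 for XTH19, where 52.6% of all probe sets passed.

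The log2 differences in the steps between pollinated groups do not use the unpollinated arrays. Their intervals and p-values do, through the spread fitted over all 5 groups. From 0.5 to 3.5 HAP XTH18 fell 2.78-fold (log2 -1.47, 95% interval -1.73 to -1.22, limma adjusted p = 2.42e-05), and of the 22745 probe sets 32, or 0.141%, were at least as much lower, XTH18 included. XTH19 fell 1.36-fold in the same step (log2 -0.44, 95% interval -0.63 to -0.25, limma adjusted p = 0.00711), a difference reached or passed by 5.44% of all probe sets. Of all probe sets 14.2% were called, 5.19% higher and 9% lower; 36.6% of the calls were higher, against 48.2% after quantile normalization. The call for XTH19 rested on 3 arrays: leaving out 0.5 HAP replicate 1 gave an adjusted p = 0.0694, leaving out 0.5 HAP replicate 2 gave 0.0533 and leaving out 3.5 HAP replicate 2 gave 0.0704, with XTH19 lower each time.

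From 3.5 to 8 HAP neither gene passed the test, although 31.4% of all probe sets did, 18.9% higher and 12.4% lower (60.4% of the calls higher, 75.5% when centred on reference genes). XTH18 read 211 ± 13.2 and then 179 ± 6.19 (SD, n = 2; log2 -0.22, 95% interval -0.47 to 0.04, limma adjusted p = 0.184). XTH19 read 356 ± 17.4 and then 418 ± 8.96 (SD, n = 2; log2 0.22, 95% interval 0.03 to 0.41, limma adjusted p = 0.0741). The means read at 8 HAP were lower for XTH18 and higher for XTH19, but neither difference passed after adjustment over all probe sets. The 95% intervals are not adjusted in this way. From 0.5 to 8 HAP XTH18 was 3.23-fold lower (log2 -1.69, 95% interval -1.95 to -1.43, limma adjusted p = 2.47e-06), and 0.242% of all probe sets were at least as much lower. XTH19 had a log2 difference of -0.22 (95% interval -0.41 to -0.03, limma adjusted p = 0.104), and 21.6% of all probe sets were called, 10.9% higher and 10.7% lower.

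**Figure D2:**
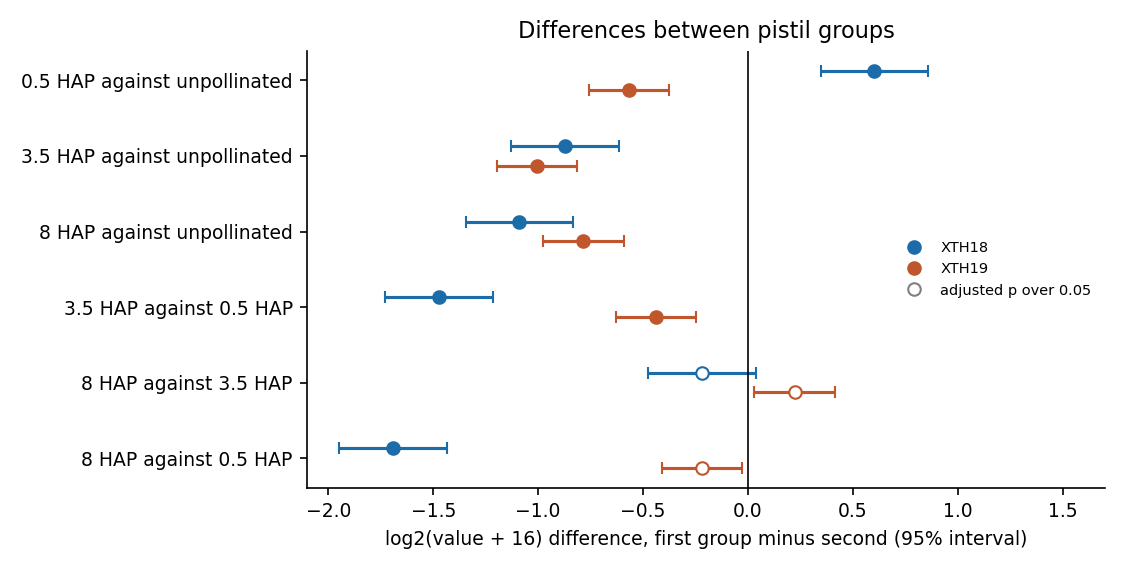
Differences of XTH18 and XTH19 in 6 comparisons of pistil groups, as log2(value + 16) of the group named first minus the group named second, with 95% intervals from limma. Filled points passed an adjusted p of 0.05; XTH18 is higher only at 0.5 HAP against unpollinated (log2 0.60), and the open points are XTH18 from 3.5 to 8 HAP and XTH19 from 3.5 and from 0.5 to 8 HAP.

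Whether both genes keep a fixed ratio was tested on the log2 ratio of XTH18 to XTH19 on each array, which any scaling common to an array leaves almost as it is. The unpollinated pair gave -0.88 and -0.82, the 0.5 HAP pair 0.25 and 0.39, the 3.5 HAP pair -0.70 and -0.73, the 8 HAP pair -1.16 and -1.14, and the ovule pair -0.30 and -0.07. Its group mean was thus higher by more than a log2 unit at 0.5 HAP than before pollination, near the unpollinated value again at 3.5 HAP, and lowest at 8 HAP. The groups differed in an exact permutation test of the F statistic over the 945 ways to divide the 10 arrays into 5 groups of 2 (p = 0.00106, the smallest value this design can give). The ovule ratio rests on values within the background level. With the 8 pistil arrays alone the exact permutation p was 0.00952, again the smallest of its 105 divisions; this restriction was chosen after the data were seen. Single pairs of groups cannot be tested in this way with 2 arrays each.

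**Figure D3:**
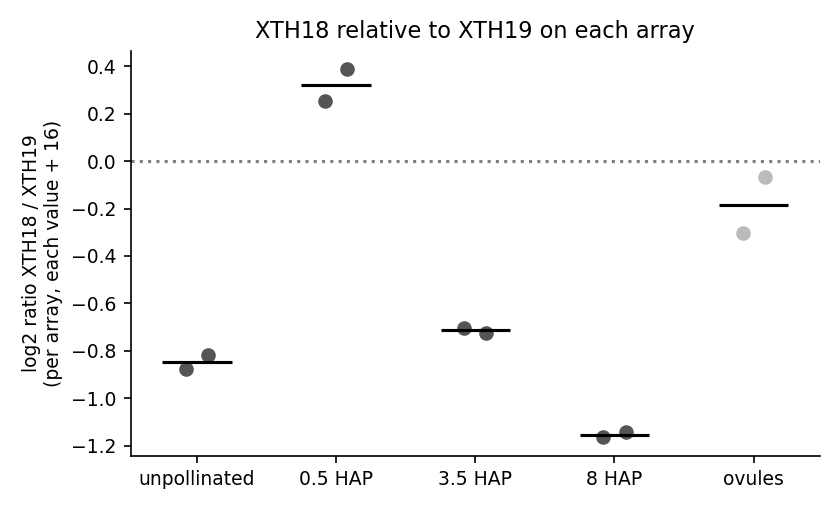
Log2 ratio of XTH18 to XTH19 on each of the 10 arrays, with 16 added to each intensity; horizontal lines are group means and the pale ovule points rest on values within the background level. The 0.5 HAP arrays (0.25 and 0.39) lie above 0 and all other arrays below it; the value 0 itself has no meaning for RNA amounts, since the probe sets differ.

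In ovules both transcripts were within the background level, so the contrast with unpollinated pistils is a bound. XTH18 was at least 2.92-fold higher in unpollinated pistils than in ovules (399 ± 4.27 against 46.2 ± 11.6; SD, n = 2; limma adjusted p = 6.5e-09). XTH19 was at least 5.35-fold higher (731 ± 29.9 against 54.2 ± 5.12; SD, n = 2; limma adjusted p = 2.26e-10). Each bound sets the mean of the pistil arrays against the background level of 136.5, not against the lower ovule reading. In this comparison 51.6% of all probe sets were called, 29.6% higher and 22% lower; 57.4% of the calls were higher, against 22.1% when centred on reference genes. Against pollinated pistils the bound for XTH18 was 4.50-fold at 0.5 HAP, 1.54-fold at 3.5 HAP and 1.31-fold at 8 HAP, and for XTH19 it was 3.58-fold, 2.61-fold and 3.06-fold. These pollinated groups were not tested against ovules.

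Of the 33 genes of the XTH family 10 were measured under a single name, the 2 described and 8 others. XTH20, a close relative of both, gave 83.0 and 112 in the unpollinated pair, 94.7 and 90.2 in the 0.5 HAP pair, 92.4 and 83.3 in the 3.5 HAP pair, 172 and 159 in the 8 HAP pair, and 85.0 and 106 in the ovule pair. It was thus above the background level only at 8 HAP, where it was higher than in unpollinated pistils (log2 0.69, SE 0.128, limma adjusted p = 0.00149). XTH21, XTH26 and XTH29 had group means within the background level in all 5 groups.

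The other 4 members were above the background level in at least 4 groups, and none had its group means in the order of XTH18 or of XTH19. XTH16 gave 2593 and 1646 in the unpollinated pair, 906 and 995 in the 0.5 HAP pair, 930 and 901 in the 3.5 HAP pair, and 1480 and 1502 in the 8 HAP pair. It fell by 0.5 HAP (log2 -1.11, SE 0.209, limma adjusted p = 0.00231) and was also lower at 3.5 HAP (log2 -1.16), while in ovules it read 1207 and 1892. Without unpollinated replicate 2 the 0.5 and 3.5 HAP differences were -1.43 and -1.49, and without replicate 1 they were -0.78 and -0.84. XTH27, listed as EXGT-A3, was lower at 3.5 HAP, at 1182 against 2021 unpollinated (log2 -0.74, SE 0.165, limma adjusted p = 0.00596). This call was lost without 3.5 HAP replicate 1 (log2 -0.63). Its unpollinated arrays read 2400 and 1641, and the log2 difference was -1.02 without unpollinated replicate 2 and -0.47 without replicate 1.

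XTH32 went the other way. The unpollinated pair gave 327 and 338, the 0.5 HAP pair 393 and 383, the 3.5 HAP pair 469 and 468, the 8 HAP pair 609 and 528, and the ovule pair 63.3 and 60.9, the last within the background level. It was higher than in unpollinated pistils at 3.5 HAP (log2 0.48, limma adjusted p = 0.00205) and at 8 HAP (log2 0.74, limma adjusted p = 6.49e-05). XTH33 read 165 on average before pollination, 247 at 8 HAP and 300 in ovules; its 8 HAP call (limma adjusted p = 0.0239) was lost without unpollinated replicate 2, with an adjusted p = 0.123, and without either 8 HAP array, with 0.0799 and 0.115. Counted over the 8 other members, 0 rose and 1 fell at 0.5 HAP, 1 rose and 2 fell at 3.5 HAP, and 3 rose and 0 fell at 8 HAP, all against unpollinated pistils. Their median log2 differences were -0.02, -0.18 and 0.21, beside -0.02, -0.07 and -0.01 over all probe sets. Their 1, 3 and 3 calls of 8 stand beside 30.2%, 29.9% and 38.5% of all probe sets called, and the counts at 3.5 and 8 HAP are near those shares. The 3 rises at 8 HAP were XTH20, XTH32 and XTH33. Of all probe sets 18.9% rose and 12.4% fell from 3.5 to 8 HAP. In this step neither XTH18 nor XTH19 passed, while 5 of the 8 other members rose and 0 fell (median log2 0.49, against 0.05 over all). Of these 5, which were XTH16, XTH20, XTH21, XTH32 and XTH33, XTH20 alone kept its call when any 1 array was left out, and XTH21 was within the background level at both times. XTH21 reached an adjusted p = 0.05 without 3.5 HAP replicate 1, XTH16 0.0941 to 0.12 and XTH33 0.0594 to 0.0837 without any 1 of the 4 arrays compared, and XTH32 0.287 without 8 HAP replicate 1 and 0.134 and 0.139 without a 3.5 HAP array.

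**Figure D4:**
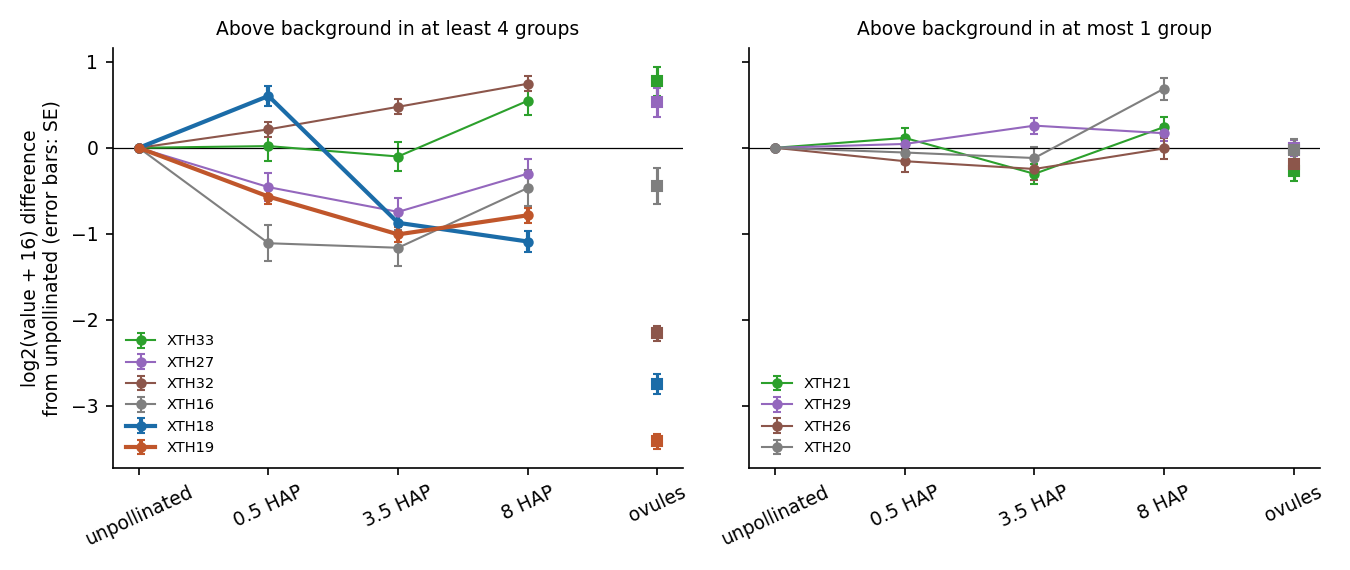
Log2(value + 16) difference from unpollinated pistils for the 10 measured XTH genes at 0.5, 3.5 and 8 HAP (joined points) and in ovules (squares), with the limma standard error. Left, genes whose group mean was above the background level in at least 4 groups; right, genes above it in at most 1 group. XTH18 and XTH19 are drawn thicker, and XTH18 is the only gene with a called rise at 0.5 HAP (log2 0.60).

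Among the 15 genes listed for xyloglucan synthesis 5 were measured under a single name, all of the CSLC group, whose products make the glucan backbone of xyloglucan. None fell after pollination: 1 rose at 0.5 HAP, 1 at 3.5 HAP and 3 at 8 HAP against unpollinated pistils, with a median log2 difference of 0.44 at 8 HAP (-0.01 over all probe sets). Of all probe sets 15.5%, 12.9% and 19.7% rose at these times, so that 1 of 5 is near the general share at 0.5 and 3.5 HAP. CSLC8, listed as ATCSLC08, rose to 355 at 8 HAP from 246 (log2 0.51, SE 0.0943, limma adjusted p = 0.00149). The call of CSLC4 at 8 HAP was lost without unpollinated replicate 2 or 8 HAP replicate 1, with an adjusted p = 0.098 and 0.123. The call of CSLC6 (limma adjusted p = 0.041) was lost in 10 of 19 alternatives, among them the replicate block (adjusted p = 0.053), quantile normalization (0.0635), only the compared groups in the fit (0.0946), and leaving out unpollinated replicate 2 (0.318), 8 HAP replicate 1 (0.129), 8 HAP replicate 2 (0.148) or any 0.5 or 3.5 HAP array (0.0587 to 0.0598). CSLC12, the call at 0.5 HAP, was lost without unpollinated replicate 1, with an adjusted p = 0.0758, and without 0.5 HAP replicate 2, with 0.15. CSLC5, the call at 3.5 HAP, was lost without unpollinated replicate 2, with an adjusted p = 0.205, and without either 3.5 HAP array, with 0.154 and 0.0773. In ovules 1 of the 5 was lower and 1 higher than in unpollinated pistils. Of all probe sets 22% were lower and 29.6% higher there, so neither count stands above the general share. CSLC4 was lower, at 182 against 738 (log2 -1.94, SE 0.13, limma adjusted p = 2.41e-07). CSLC8 was higher, at 320 against 246 (log2 0.36, limma adjusted p = 0.00739), a call lost when centred on the reference genes (adjusted p = 0.515) or with only these groups in the fit (0.0518).

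Of 28 listed expansins, proteins that loosen walls without cutting a polymer, 16 were measured under a single name. At 0.5 HAP 3 rose and 3 fell, at 3.5 HAP 6 rose and 4 fell, and at 8 HAP 5 rose and 3 fell, with median log2 differences of 0.12, -0.07 and 0.11 (-0.02, -0.07 and -0.01 over all probe sets). Of all probe sets 30.2%, 29.9% and 38.5% were called in these comparisons. EXPA8 and EXPA16, both alpha-expansins, were 2.04-fold and 2.17-fold lower at 0.5 HAP (limma adjusted p = 2.56e-05 and 0.000141), the time at which XTH19 was lower and XTH18 higher. From 0.5 to 3.5 HAP EXPA8 rose 2.35-fold (limma adjusted p = 2.97e-05), the step in which XTH18 fell. Of the 16 expansins 4 rose in that step, 2 fell and 10 were not called (median log2 0.16, against -0.03 over all probe sets). Of all probe sets 14.2% were called there. Of 7 measured auxin genes, a hormone to which XTH19 is known to respond, 1 rose at 0.5 HAP, 2 at 3.5 HAP and 3 at 8 HAP, and 0 fell, where 15.5%, 12.9% and 19.7% of all probe sets rose. The count at 0.5 HAP is near that share, and the median log2 differences were -0.08, 0.02 and 0.17. On both unpollinated arrays 4 of the 7 were within the background level, where a fall could hardly be seen. GH3.3, an auxin-conjugating enzyme, had a mean of 30.9 before pollination, 67.1 at 0.5 HAP (both within the background level), 760 at 3.5 HAP and 1012 at 8 HAP.

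No protein-coding gene lies between XTH18 and XTH19 in the gene table of assembly TAIR10.1. Of the 10 protein-coding neighbours looked at, 5 on each side of the pair, 4 were measured under a single name. AT4G30330 was lower at 3.5 HAP than in unpollinated pistils (log2 -0.50, SE 0.101, limma adjusted p = 0.00358) and had log2 differences of -0.15 at 0.5 HAP and -0.11 at 8 HAP, which did not pass (adjusted p = 0.294 and 0.443). AT4G30230, AT4G30310 and AT4G30320 passed in none of the 3 comparisons, with log2 differences from -0.16 to 0.39. XTH24, the next gene beside XTH18, was not analysed here.

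The genes most like each member were ranked by Pearson's r over the 10 arrays on the log2(value + 16) scale, among 7091 other probe sets that name a single gene and have a group mean above the median of all values. The arrays share groups and the ovule arrays lie far from the rest, so r is a description. For XTH18 the closest were AT3G19810 (r = 0.979), AT3G10970 (0.976), AT1G20823 (0.975), TRXF2, a chloroplast thioredoxin (0.970), and AT2G27500 (0.969). AT2G27500 had group means of 1113 unpollinated, 1501 at 0.5 HAP, 838 at 3.5 HAP, 638 at 8 HAP and 374 in ovules, in the same order as XTH18. Pearson's r does not measure the size of a change. From unpollinated to 0.5 HAP the means went from 1209 to 1344 for AT3G19810 and from 968 to 1011 for AT3G10970. They went from 446 to 538 for AT1G20823 and from 1286 to 1306 for TRXF2. Over the 8 pistil arrays alone these 5 had r between 0.917 (TRXF2) and 0.988 (AT1G20823). The most opposite were AT1G75170 (r = -0.988), CYTC-1, a cytochrome c (-0.987), and AT1G54610 (-0.971).

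For XTH19 the closest were AT2G28410 (r = 0.995), BGLU44, a beta-glucosidase (0.992), AT1G72500 (0.988), AT1G07440 (0.988) and AT1G16260 (0.987). AT2G28410 had group means of 606 unpollinated, 472 at 0.5 HAP, 372 at 3.5 HAP, 458 at 8 HAP and 82.9 in ovules, in the same order as XTH19. Over the pistil arrays alone r was between 0.887 (AT1G72500) and 0.952 (AT2G28410). The most opposite were AT2G22930 (r = -0.986), AT4G17350 (-0.986) and AT2G22600 (-0.986). No gene stood in both lists. XTH19 itself ranked 143 in likeness to XTH18. The pair had Pearson's r = 0.898 and Spearman's rho = 0.794 over 10 arrays, and 0.579 and 0.595 over the 8 pistil arrays, so that the higher values rest on the ovule arrays.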

How the data were processed

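The authors deposited 1 table of linear intensity values for 22810 probe sets on 10 one-colour arrays. Biotin-labelled cRNA was made in a double amplification, per the labels' protocols, and MAS5 is listed, without a version, per the submitters' processing notes. Array medians are close, so a common scaling by the authors was inferred; its method is not given in the sources used here. Every column was used. The labels count pistils and plants per replicate; p-values measure only the spread between these samples, which may be technical where pools were not independent.

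Probe sets were named through the platform annotation, matched to the gene table of TAIR10.1 (13435 matched); 503 name several genes and 8730 none, so lists are covered in part. The 64 control probe sets and 1 without values were left out, leaving 22745. Values were taken as log2(value + 16) and fitted with limma 3.58.1 in R 4.3.3 (all 5 groups, intensity trend, 5 residual and 6.106 prior degrees of freedom), with Benjamini-Hochberg adjustment over all 22745 and a threshold of 0.05. The fit was tested on simulated data. Members, lists and alternatives were chosen with earlier results of these data known. Named genes are XTH18, XTH19, the other measured XTH genes, up to 4 of each list by adjusted p, the most and least alike genes, and neighbours; ARPN, SPT, AT3G12000, BAN, GH3.3 and the CSLC genes come from those lists. Where several probe sets name a gene, the brightest stands for it. Python 3.11.15, pandas 2.3.3 and matplotlib 3.10.9 made the tables and figures. No genome or sequence was used. Alternatives covered scaling, pseudocount, dim probe sets, groups fitted, trend, a replicate block and each array left out.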

Additional observations from a re-analysis of the deposited data

How the results depend on the processing

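For XTH18 all 7 comparisons and the F test kept their direction and side of the threshold under every alternative run, as did, for XTH19, the comparisons with unpollinated pistils, the F test and the ovule contrast. Those alternatives were quantile normalization, centring on 4 reference genes, pseudocounts (1 or 64), a filter that removed the dimmest 40% of probe sets, fewer groups in the fit, no trend, a replicate block and each array left out. The ratio of the genes was recomputed only with quantile normalization, both pseudocounts, the pistil groups alone and each array left out; its F was between 58.4 and 291, and its exact permutation p was each time the smallest the design can give, which says nothing about stability. For XTH19 from 0.5 to 3.5 HAP the log2 difference was between -0.49 and -0.39 with single arrays left out, and 3 of those 10 fits lost the call (adjusted p up to 0.0704). From 3.5 to 8 HAP XTH19 passed when centred on the reference genes (log2 0.29, adjusted p = 0.0282) or with only the 2 groups in the fit (log2 0.22, adjusted p = 0.0408), and from 0.5 to 8 HAP with only those groups (log2 -0.22, adjusted p = 0.0308); the cause was not tested. No pairing of samples by replicate number was seen in the values: same-number deviations correlated between -0.323 and 0.105 over 10 pairs of groups. Whether samples of the same number were handled together was not tested. With the replicate block the adjusted p for XTH18 at 0.5 HAP was 0.00431 and for XTH19 from 0.5 to 3.5 HAP 0.0141, and no call of either gene changed. Centring moved the median log2 difference of all probe sets from -0.02 to 0.10 at 0.5 HAP, from -0.01 to 0.15 at 8 HAP and from 0.04 to -0.24 in ovules. Counts of called probe sets ranged from 3723 to 7368 at 0.5 HAP (6880 as reported), 3981 to 8157 at 3.5 HAP (6796), 5610 to 9735 at 8 HAP (8763), 982 to 5895 from 0.5 to 3.5 HAP (3228), 3563 to 9379 from 3.5 to 8 HAP (7134) and 2406 to 7706 from 0.5 to 8 HAP (4916). XTH18 at 8 HAP and both genes in ovules are limited by signal over background.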
